A study of Mus musculus with 9 samples.

Results

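Freshly prepared naive CD4+ T cells are the uncultured baseline of a study of mouse T cells and interleukin-1 beta (IL-1b), and their messenger levels are described here. The samples were chosen by title and are the 3 libraries of freshly prepared cells, out of 9 in the series; the other 6 were cultured for 20 h without or with IL-1b at 10 ng/mL and were not analysed here. The mice were wild type (WT), of strain C57BL6/J, with no engineered allele in the labels; the cells were taken from their lymph nodes and received no treatment. The labels do not give the sex or age of the mice, the sorting gate, or whether the 3 replicates are separate mice, pools or preparations, so the spread between libraries may be technical.

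Naive CD4+ T cells are helper lineage cells that have left the thymus and have not yet met their antigen. They circulate between blood and lymph nodes, entering with the help of CCR7 and leaving through a receptor for sphingosine-1-phosphate, and they live on signals from interleukin-7 and from self peptides on MHC molecules. They are small resting cells, and the cytokines that define helper subsets are made after activation.

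Polyadenylated RNA was sequenced, and the libraries held 23056686, 15958080 and 13518814 expected counts for replicates 1, 2 and 3, with 17039 to 17559 genes above 0. Levels are given in TPM, a gene's share of all transcripts, for which counts are divided by transcript length, so that genes can be compared within a library. The sign ± gives the SD over n = 3 libraries. A protein-coding gene was counted as expressed at 1 TPM or more in all 3 libraries and abundant at 100 TPM or more in all 3. Of 21974 protein-coding genes, 9982 (45.4%) were expressed and 1304 (5.93%) abundant, 8031 (36.5%) had no counts in any library, and the median over all of them was 0.49 TPM. Another 3160 (14.4%) had counts but stayed under 1 TPM in every library, and 801 (3.65%) lay on both sides of 1 TPM. The counts in each gene list below stand against these shares of 45.4% expressed and 36.5% without counts. Over genes, which are not independent replicates, log2 TPM of pairs of libraries correlated with r from 0.985 to 0.987. The median coefficient of variation was 3.44% for abundant genes, 7.13% from 10 to 100 TPM and 17% from 1 to 10 TPM, where counting alone gives 1.53, 3.56 and 9.09%.

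**Figure D1:**
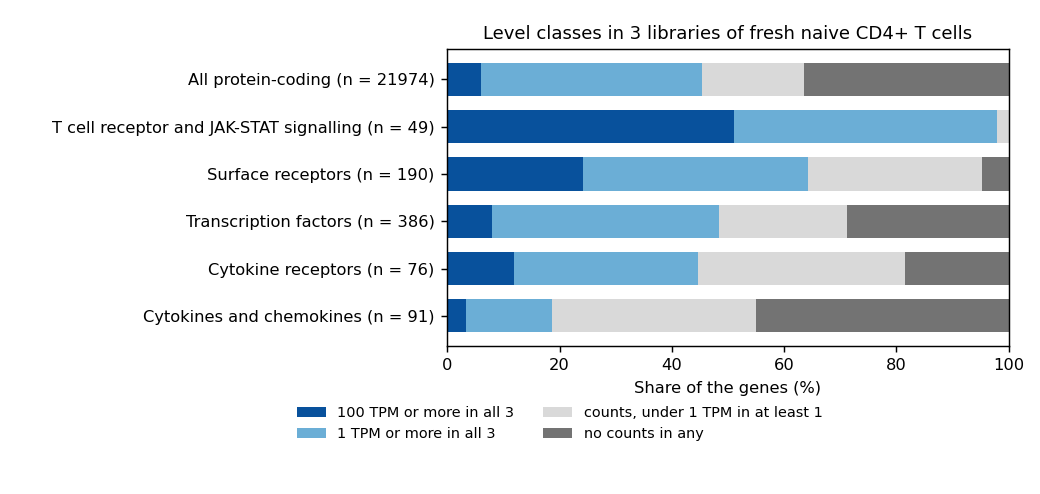
Stacked bars give the share of genes (x axis, percent) in each level class over the 3 libraries, for all protein-coding genes and for lists of 49 signalling, 190 surface receptor, 386 transcription factor, 76 cytokine receptor and 91 cytokine genes. Expressed genes make 98% of the signalling list, 64.2% of surface receptors and 48.4% of transcription factors. They make 44.7% of cytokine receptors and 18.7% of cytokines, against 45.4% of all protein-coding genes. The surface receptor list includes MHC class I and related genes, among them Tap1, Tap2, Tapbp and Nlrc5. The transcription factor list includes Notch receptors and effectors, and the cytokine receptor list includes Il18bp, a secreted binding protein gene.

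The messenger pool was led by the translation machinery. Cytosolic ribosomal protein genes held 28.4, 28.4 and 28.1% of all TPM in replicates 1 to 3. All 79 measured were abundant, 78 were at 1000 TPM or more, and their median was 3165 TPM. Their highest members were Rpl13a with 13183, 12963 and 12656 TPM, Rps27 with a mean of 10386, Rplp1 with 8680 and Rps14 with 8348. The elongation factor gene Eef1a1, whose product brings aminoacyl-tRNA to the ribosome, was the highest protein-coding gene of all, with 13176, 13266 and 13588 TPM. Tpt1, which encodes the translationally controlled tumour protein, followed among other genes with 9568, 9515 and 9354 TPM. Elongation factor 2 (Eef2, 2639 TPM), Eef1b2 (1764), the ribosomal scaffold Rack1 (2204) and the poly(A)-binding protein Pabpc1 (1379) were also among the 25 highest messengers outside ribosomal protein and mitochondrial genes. Short transcripts raise these values, since Rps27 has an effective length of 118 bases, and ribosomal protein genes took 8.43 to 8.69% of counts before division by length.

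Mitochondrially encoded messengers held 4.29, 4.47 and 4.53% of TPM. Among them mt-Co1 and mt-Co2, cytochrome oxidase subunits, had means of 8893 and 7791 TPM, mt-Cytb of complex III 3057 and mt-Nd4 of complex I 2320. The value of mt-Atp8, 9765 TPM, rests on an effective length of 11 bases and is not comparable with the others. Reads may also be shared with nuclear copies of mitochondrial DNA, which held 1.14 to 1.23% of TPM.

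Outside these groups, genes of MHC class I and of the actin skeleton were most abundant. H2-K1, a classical class I heavy chain, had 6954, 6836 and 6747 TPM, and its light chain B2m 2940, 2986 and 2983. H2-D1 (2416 TPM) and H2-Q7 (1696) were also in the highest 25, and because class I genes are near-identical in places the split of reads between them is uncertain. All 16 genes of the class I list were expressed, with a median of 316 TPM. They included the peptide transporter genes Tap1 (283) and Tap2 (205), the loading factor Tapbp (348) and Nlrc5 (265), the activator of class I transcription. The actin genes Actb and Actg1 had means of 5362 ± 181 and 1598 TPM. Actin regulators stood beside them, with the thymosins Tmsb4x at 4646 and Tmsb10 at 4231, profilin 1 (Pfn1) at 2400 and coronin 1A (Coro1a), which naive T cells need for survival, at 2101. Arhgef1 (2105) and Arhgdib (1285) encode regulators of small GTPases. The chaperones Hspa8 (2255) and Hsp90ab1 (1590), cyclophilin A (Ppia, 1818), the helicase Ddx5 (1400), the membrane protein gene Shisa5 (3440) and the surface antigens Cd52 (1549) and Ly6e (1418) complete the 25.

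The pool was concentrated in few genes. The 10 highest protein-coding genes made up 9.74% of TPM, the highest 100 made up 38.7%, and 256 genes made up 50%. Of the highest 100, 73 were ribosomal protein genes, 9 mitochondrial and 18 others. Protein-coding genes together held 95.3% of TPM. Among noncoding RNAs with a gene name, Gas5, a snoRNA host transcript, was highest with 573, 582 and 576 TPM. The nuclear RNAs Malat1 (490.0) and Neat1 (236) and the snoRNA hosts Snhg8 (192) and Snhg1 (165) followed. Over the 3 libraries Malat1 had 117383 counts, Neat1 25598 and Gas5 11338, so this order turned before division by length. Polyadenylated RNA was sequenced, so RNAs without a poly(A) tail may be under-recovered.

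The label of naive CD4+ T cells was checked against 12 marker genes; all 12 were expressed and 11 abundant. Tcf7, which encodes the transcription factor TCF-1 that keeps T cells naive, was highest with 1167, 1130 and 1174 TPM. The coreceptor gene Cd4 had 528, 550.2 and 605 TPM. The chemokine receptor gene Ccr7 had 392, 394 and 393 TPM, the smallest spread of the list, and the interleukin-7 receptor gene Il7r 309, 314 and 314. The factors Satb1 (440.4 TPM), Lef1 (379), Klf2 (346) and Foxp1 (177), the egress receptor S1pr1 (324), Dapl1 (173) and the survival gene Bcl2 (53.9) were the other members described here. The genes lie, in GRCm38, at chr11:52252371-52283014 for Tcf7, chr6:124864692-124888221 for Cd4, chr11:99144196-99155077 for Ccr7 and chr15:9505788-9530176 for Il7r, all on the minus strand. Ranges of genes next to each other in this order were separate except for Ccr7 with Lef1 and Foxp1 with Dapl1. The list had a median of 363 TPM against 0.49 for all protein-coding genes.

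**Figure D2:**
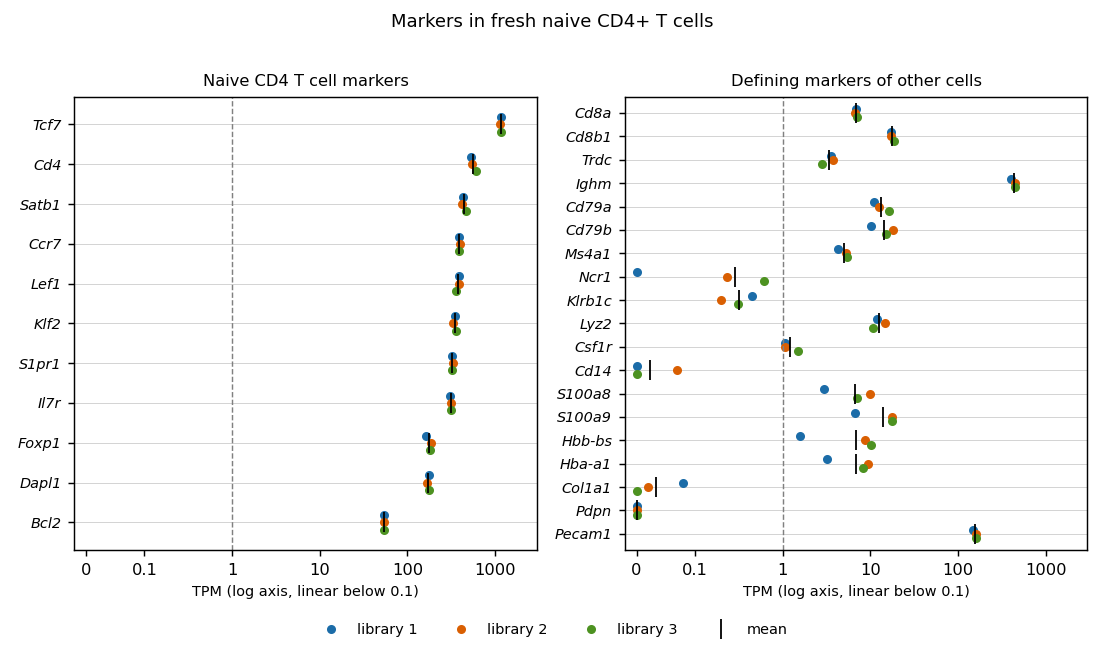
TPM of each gene in libraries 1, 2 and 3 (coloured points) with the mean (black bar), on an axis that is logarithmic above 0.1 TPM and linear below, with a dashed line at 1 TPM. The 11 naive markers shown lie above 50 TPM, and of the other markers plotted Ighm and Pecam1 lie above 100 TPM while Pdpn is at 0.

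The start regions of 6 genes are printed because they belong to 4 genes described here as abundant and to 2 with no counts. They run 5′ to 3′ on the gene's strand from 160 bases before to 10 bases after the most upstream RefSeq start in GRCm38.p6, with CG dinucleotides in capitals. Lef1 lies at chr3:131110137-131110306 (plus strand) and Il7r at chr15:9529867-9530036 (minus strand). Lck, the kinase that starts T cell receptor signalling, lies at chr4:129573632-129573801 (minus strand) and Eef1a1 at chr9:78481715-78481884 (minus strand). The genes of the helper cytokines Il4 and Il13, which had no counts, lie at chr11:53618656-53618825 (minus strand) and chr11:53634693-53634862 (minus strand).
Lef1: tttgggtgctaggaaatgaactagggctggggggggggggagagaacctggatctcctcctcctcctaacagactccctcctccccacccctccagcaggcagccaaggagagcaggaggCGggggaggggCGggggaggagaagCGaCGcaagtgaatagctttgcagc
Il7r: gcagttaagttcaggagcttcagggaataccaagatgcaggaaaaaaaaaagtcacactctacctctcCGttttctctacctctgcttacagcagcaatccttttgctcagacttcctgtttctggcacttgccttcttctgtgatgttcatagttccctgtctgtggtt
Lck: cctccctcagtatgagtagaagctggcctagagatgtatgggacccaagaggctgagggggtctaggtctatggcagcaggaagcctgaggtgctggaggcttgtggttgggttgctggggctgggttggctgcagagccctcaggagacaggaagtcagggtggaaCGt
Eef1a1: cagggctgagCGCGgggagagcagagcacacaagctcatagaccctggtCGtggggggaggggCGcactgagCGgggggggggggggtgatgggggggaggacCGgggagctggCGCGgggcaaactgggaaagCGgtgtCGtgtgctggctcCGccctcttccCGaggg
Il4: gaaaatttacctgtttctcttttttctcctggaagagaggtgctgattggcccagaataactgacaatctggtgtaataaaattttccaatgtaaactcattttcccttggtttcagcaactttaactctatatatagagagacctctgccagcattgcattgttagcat
Il13: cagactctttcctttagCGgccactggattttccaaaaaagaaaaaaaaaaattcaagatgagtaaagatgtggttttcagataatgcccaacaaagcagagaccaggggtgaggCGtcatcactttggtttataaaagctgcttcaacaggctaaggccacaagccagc

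In the full windows of 300 bases the CG count was 18 for Lef1 (mean 379 TPM) and 22 for Eef1a1 (13343 TPM). It was 1 for Il7r (312 TPM), 7 for Lck (1191 TPM), 2 for Il4 and 3 for Il13. High levels occurred beside many and beside few CG dinucleotides in these genes. Of the expressed protein-coding genes, 8100 (81.1%) matched a RefSeq promoter, with a median CG count of 21, and 645 of them (7.96%) held 5 or fewer. Of the abundant genes with a promoter, 10.8% held 5 or fewer, and of all 27025 genes in the promoter table, 43.6% did. That table is a wider set than the 16914 protein-coding genes matched to it. Its shares are therefore not a like reference for the expressed genes. For genes without counts the table had an entry for 73.6%, below the 80% required here, so no summary of them is given. The motif TATAAA was sought on the gene's strand, starting and ending between 45 and 16 bases before the start. It was found at Il13 and not at the other genes printed. Of the 8100 expressed genes with a promoter 77 (0.951%) hold it there, and 2.36% of all genes in the table do. Among abundant genes with a promoter 23 of 1054 (2.18%) hold it, and from 10 to 100 TPM 32 of 5015 (0.638%). Which start sites these cells used was not measured.

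Of 24 genes of memory and effector T cells 14 (58.3%, against 45.4% of all protein-coding genes) were expressed and none was abundant, and the median was 2.46 TPM against 0.49. The highest were Id2 (51.2 TPM), a partner of E proteins, and Prf1, the perforin gene, with 38.6, 33.7 and 40.7 TPM. Cd44, whose surface level separates naive from memory cells, had 7.82, 10.1 and 10.7 TPM. Among the 4 highest members the chemokine gene Ccl5 had the widest spread, with 5.25, 18.2 and 9.7 TPM. The Th1 receptor gene Cxcr3 (0.887 TPM), Gzmb (0.407), Ifng (0.353) and Klrg1 (0.09) were not expressed by this measure. Of 23 genes induced by activation, 19 (82.6%, against the same 45.4%) were expressed, with a median of 22.4 TPM. Immediate early genes led them, with Junb at 393, 369.5 and 427 TPM and Fos at 138, 143 and 137. The phosphatase gene Dusp2 (181) and Ier2 (180.1) were also abundant, while Jun (94.2), Cd69 (50.6) and Egr1 (32.8) were lower. Il2, the T cell growth factor gene, had a mean of 0.153 TPM, and Il2ra, the high-affinity receptor chain, had 0.68, 0.38 and 2.73 TPM, or a mean of 0.53 without replicate 3.

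Regulatory T cell genes were expressed in 10 of 14 cases (71.4%, against 45.4% of all protein-coding genes), with a median of 3.98 TPM. Izumo1r, the gene of folate receptor 4, was the only abundant one with 123, 119 and 121 TPM, followed by Tnfrsf18 (48.8), the GITR gene. Foxp3, the factor that defines the lineage, had 1.52, 1.47 and 0.82 TPM, and lay on both sides of 1 TPM.

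Many markers of other cells were present in all 3 libraries, most of them at low levels, and in bulk RNA fewer cells of a type and less RNA per cell cannot be told apart. Of 84 such markers 43 (51.2%) were expressed, near the 45.4% of all protein-coding genes, and 8 had no counts. Of 20 B cell markers 18 (90%) were expressed, with summed levels of 784, 966 and 924 TPM and a median of 9.01. Ighm, the immunoglobulin mu chain gene, made up much of that sum with 407, 447 and 452 TPM, followed by Cd74 (131 TPM), the MHC class II invariant chain, and Igkc (119.8). The B cell receptor genes Cd79a and Cd79b had 13.3 and 14.5 TPM, and the B lineage factor Ebf1 0.563. The 12 neutrophil markers summed to 19.6, 51.3 and 37.2 TPM, with 6 (50%) expressed, and S100a9 had 6.74, 17.5 and 17.6 TPM. The 9 erythroid and platelet markers summed to 11.6, 38.2 and 30.1 TPM, with 4 (44.4%) expressed, or 1 at a threshold of 2 TPM. Both expressed shares were near that of all protein-coding genes. Library 1 was the lowest of the 3 in each of these sums, and the part of such RNA in the levels reported here was not tested.

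Of 14 monocyte, macrophage and dendritic cell markers 6 (42.9%, against 45.4% of all protein-coding genes) were expressed, or 2 at a threshold of 2 TPM. Their summed levels were 71 to 85 TPM. Cst3, the cystatin C gene, gave 55.5 of these and Lyz2 12.5, Csf1r had 1.21 and Cd14 had 1 count in all. The NK list had 5 of 10 (50%) expressed and sums of 48 to 52.6 TPM, with Prf1 as its main member, and its defining genes Ncr1 and Klrb1c were at 0.283 and 0.32. Cd8b1 and Cd8a, the CD8 chains, had 17.7 ± 0.771 and 6.86 ± 0.153 TPM, and within each library Cd4 was 30.4 to 32.7 times as high as Cd8b1. The gamma delta receptor gene Trdc had 3.39 TPM. Of 10 stromal and endothelial markers 6 had no counts, and the 1 expressed, Pecam1 (CD31), which T cells also express, had 149, 162 and 161 TPM.

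Genes of the T cell receptor complex were expressed in 14 of 15 cases and abundant in 11, with a median of 406 TPM. The constant region Trbc2 had 1998, 2002 and 1970 TPM, Trac had a mean of 1121 and Trbc1 1120, and the ranges of the latter pair overlapped. The near-identical Trbc1 and Trbc2 can share reads, and their deposited ratio was 1.78 ± 0.0502 for Trbc2 over Trbc1. The CD3 chains were not level with each other, with Cd3g at 622 ± 14.5, Cd3e at 529 ± 9.64 and Cd3d at 323 ± 8.3 TPM, and the zeta chain Cd247 had 406 ± 15.8. The ranges of Cd3g and Cd4, of Cd4 and Cd3e and of Cd3d and Cd6 overlapped. In counts not divided by length Cd3e lay above Cd3g. Ptcra, which pairs with the beta chain in thymocytes, had 0.04 TPM. Of 35 beta variable segments 23 had counts in all libraries and 12 had none. Trbv13-2 took 11.4 ± 0.941% of the counts on these segments, Trbv2 10.5 ± 0.49%, Trbv1 9.67 ± 0.478% and Trbv31 9.14 ± 0.768%. In TPM the highest were Trbv13-2 (303), Trbv1 (154) and Trbv31 (152), on effective lengths of 110 to 184 bases.

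Genes that carry the receptor's signal inward were expressed without exception. All 30 proximal signalling genes were expressed, 19 were abundant, and the median was 171 TPM. Lck had 1184, 1171 and 1219 TPM, close to the phosphatase gene Ptprc (CD45, mean 1164), with overlapping ranges. The adaptor gene Lat had 871 TPM, the kinase genes Fyn 311 and Zap70 207, and the lowest member was the kinase gene Tec at 14.2. The adaptor gene Fyb had 520.1, 513 and 523 TPM. Negative regulators on the list included the Lck-inhibiting kinase Csk at 344, 336 and 366 TPM and the phosphatase Ptpn6 (SHP-1) at 245, 260 and 238. Ptpn22 (93.7), Ubash3a (90.2), Cbl (74.9), Pag1 (52.3) and Cblb (45.3) were lower. The inhibitory receptor gene Cd5, also on the list, had a higher mean than Csk. Prkcq, the protein kinase C of the synapse, had 216, 221 and 220.3 TPM, and Themis, a thymocyte selection gene, 73.8. Lck was higher than Zap70 in every library.

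Of 24 costimulatory and inhibitory receptors 19 were expressed and 6 abundant, with a median of 21.4 TPM. Cd27, a survival receptor of the TNF receptor family, was highest with 419, 415 and 426 TPM. Cd28, the main costimulator, had 105, 104 and 105 TPM, and its range overlapped those of its neighbours Cd84 and Slamf6. Among inhibitory receptors Vsir (VISTA) had 139 ± 5.33 TPM and Btla 79.5 ± 3.31. The ligand gene Cd40lg had 89.1 TPM. Lower members were Icos at 22.1, Pdcd1 (PD-1) at 4.45, 4.86 and 5.04, Ctla4 at 3.27, 4.47 and 4.19, Lag3 at 1.62, Tigit at 1.06 and Havcr2 (TIM-3) at 0.16 TPM. In the TNF receptor family 17 of 27 genes were expressed and 2 had no counts. Behind Cd27 came Tnfrsf14 (HVEM, 121 TPM), Tnfrsf25 (79.9, DR3), Relt (54.6) and Tnfrsf18 (48.8), the last pair with overlapping ranges.

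**Figure D3:**
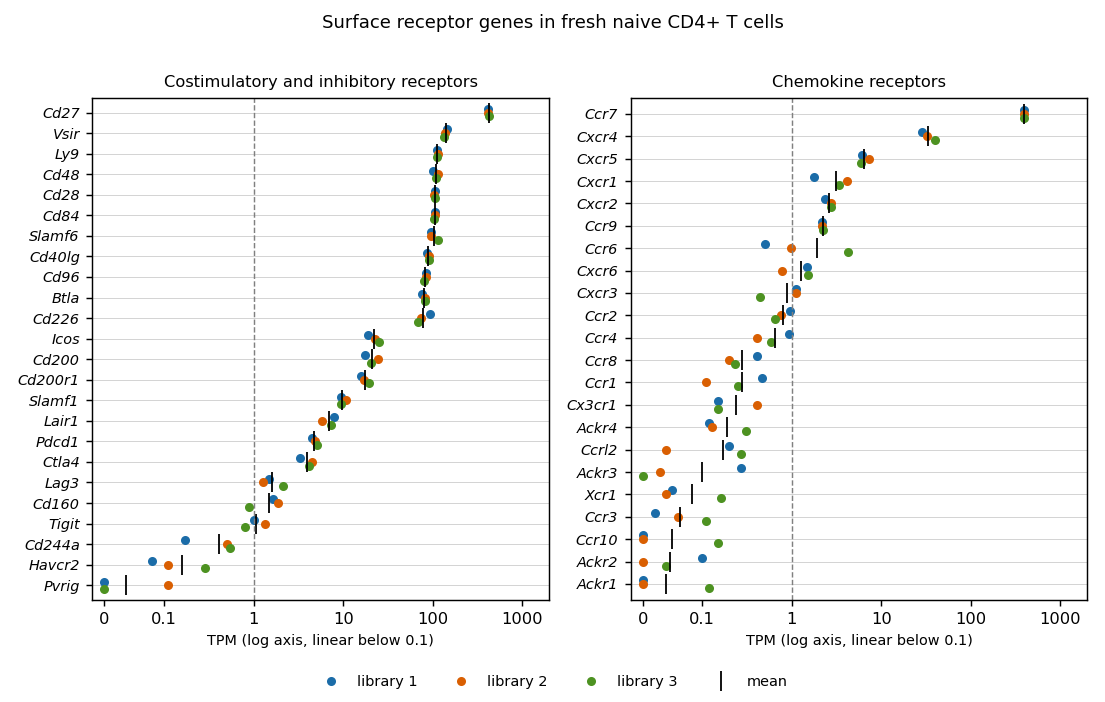
TPM of 24 costimulatory and inhibitory receptor genes and 22 chemokine receptor genes in libraries 1 to 3 (points) with the mean (bar), on an axis logarithmic above 0.1 TPM and linear below, with a dashed line at 1 TPM. Costimulatory and inhibitory genes run from Cd27 at 420.3 to Pvrig at 0.0367 TPM, with 6 above 100 TPM, and Ccr7 at 393 is followed by Cxcr4 at 33.2.

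A single chemokine receptor gene was high. Of the family, 6 of 23 were expressed, the median was 0.643 TPM, and Ccr7 with 393 ± 1.1 TPM was the only abundant one. Cxcr4, the CXCL12 receptor, had 28.3, 32.1 and 39.2 TPM, and Cxcr5, which guides cells to follicles, 6.07, 7.29 and 5.95. Next came Cxcr1 and Cxcr2, the latter also on the neutrophil marker list, with overlapping ranges. Other receptors of inflamed tissue and of mucosa were lower still, with Ccr9 at 2.21, Cxcr3 at 0.887, Ccr2 at 0.787 and Ccr4 at 0.643. The mean of Ccr6 (1.92 TPM) rested on 1 library and was 0.745 without replicate 3. Among receptors for lipids and nucleotides 18 of 32 (56.2%, against 45.4% of all protein-coding genes) were expressed. They were led by the sphingosine-1-phosphate receptors S1pr1 (321, 328 and 321 TPM) and S1pr4 (131). The oxysterol receptor gene Gpr183, which positions cells within lymphoid tissue, had 43, 48.5 and 42 TPM. The adenosine receptor gene Adora2a had 24.2, 25.2 and 20.6 TPM and the prostaglandin E2 receptor gene Ptger4 18.8, 21.1 and 19.9.

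Adhesion genes were expressed in 23 of 31 cases and abundant in 13, with a median of 68 TPM. Behind Cd52, Ptprc and Thy1 (771 TPM) came the integrin chain Itgb7 with 646, 685 and 682 TPM. Its partner in the gut homing integrin, Itga4, had 98.1 TPM, or 0.146 ± 0.00633 of Itgb7. The chains of LFA-1, which holds T cells on the vessel wall, had 225 ± 0.81 (Itgal) and 312 ± 12.9 TPM (Itgb2), an order that turned in counts not divided by length. Selplg, the selectin ligand, had 475 TPM, and Cd47, the signal against phagocytosis, 163, 168 and 149. Of 12 Toll-like receptors 5 (41.7%) were expressed, and Tlr1 with 98.2, 105 and 83.8 TPM was followed by Tlr12 with 6.48. Of 11 Fc receptors 5 (45.5%) were expressed, none above 10 TPM. Both shares were near the 45.4% of all protein-coding genes.

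Cytokine receptor genes ranged from abundant to without counts. Of 76 genes on the list, which includes the secreted Il18bp, 34 (44.7%) were expressed, near the 45.4% of all protein-coding genes. Of the 76, 9 were abundant and 14 (18.4%, against 36.5%) had no counts, and the median was 0.958 TPM against 0.49. In the family of the common gamma chain the shared chain Il2rg was highest, with 617, 619 and 649 TPM. Il7r followed at 0.498 ± 0.0126 of Il2rg, Il21r (160.1, 161 and 162 TPM) at 0.257 ± 0.00571, and Il4ra (149.8, 144 and 141 TPM) at 0.231 ± 0.0127. In counts not divided by length Il7r lay above Il2rg. Il2rb, the beta chain for interleukins 2 and 15, had 9.77, 10.2 and 11 TPM, or 0.0164 ± 0.000528 of Il2rg, and overlapped with Il15ra (11.4). The receptor of thymic stromal lymphopoietin, Crlf2, which pairs with the IL-7 receptor chain, had 38.5 TPM. Il9r had 0.443 TPM and Il13ra2 no counts.

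The IL-6 family was expressed as 4 of 8 genes (50%, against 45.4% of all protein-coding genes). Il27ra had 212, 210.3 and 202 TPM, Il6ra 129, 129 and 128, and the shared chain Il6st (gp130) 122, 124 and 118. Il6ra and Il6st were near equal, with a ratio of 1.06 ± 0.0199, and Il27ra was 1.71 ± 0.0262 times Il6st, but both lay below Il6st in counts not divided by length. Osmr, Cntfr and Lepr had no counts. Among interferon receptors Ifnar1 had 93.8 ± 2.42 TPM and Ifnar2 42.4 ± 5.26, a ratio of 2.24 ± 0.273, and Ifngr1 78.4 ± 5.31 and Ifngr2 27.4 ± 5.18, a ratio of 2.94 ± 0.686. The interleukin-10 receptor chains had 13.1 (Il10ra) and 34.7 TPM (Il10rb). Of the interleukin-12 and interleukin-23 receptors, which steer Th1 and Th17 cells, Il12rb1 had 2.72 TPM, Il12rb2 0.16 and Il23r 1 count in all.

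The cytokine of the series binds to the IL-1 receptor family. Of 11 genes on the list of that family 5 (45.5%, against 45.4% of all protein-coding genes) were expressed. These 5 include Il18bp, which encodes a secreted interleukin-18 binding protein and not a receptor. Its range overlapped that of Il1rap. Il1r1, the signalling receptor, and Il1r2, the decoy, had 0 counts in each library, and 3 counts in a library would be at most 0.0944 and 0.495 TPM. The accessory chain Il1rap had 8.07, 6.16 and 7.98 TPM. Sigirr, a negative regulator of the family, was highest with 71.6, 82.7 and 80.6 TPM, followed by Il18r1 (33.6), while its partner Il18rap had 0.55. Il1rl2, the interleukin-36 receptor gene, had 11.5, 11.6 and 12.5 TPM. Il17ra, shared by the interleukin-17 receptors, was abundant with 135, 124 and 125 TPM, and the other 4 genes of that family were not expressed, although Il17rb, with 1.7, 1.25 and 0.56 TPM, raises the expressed count from 1 to 2 without replicate 3. For TGF-beta, Tgfbr2 had 178, 174 and 175 TPM and Tgfbr1 14.4, 16.1 and 13.9, a ratio of 0.0842 ± 0.00705 for Tgfbr1 over Tgfbr2. Such floors and the limits of low values cover counting error only, since PCR copies were not marked.

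**Figure D4:**
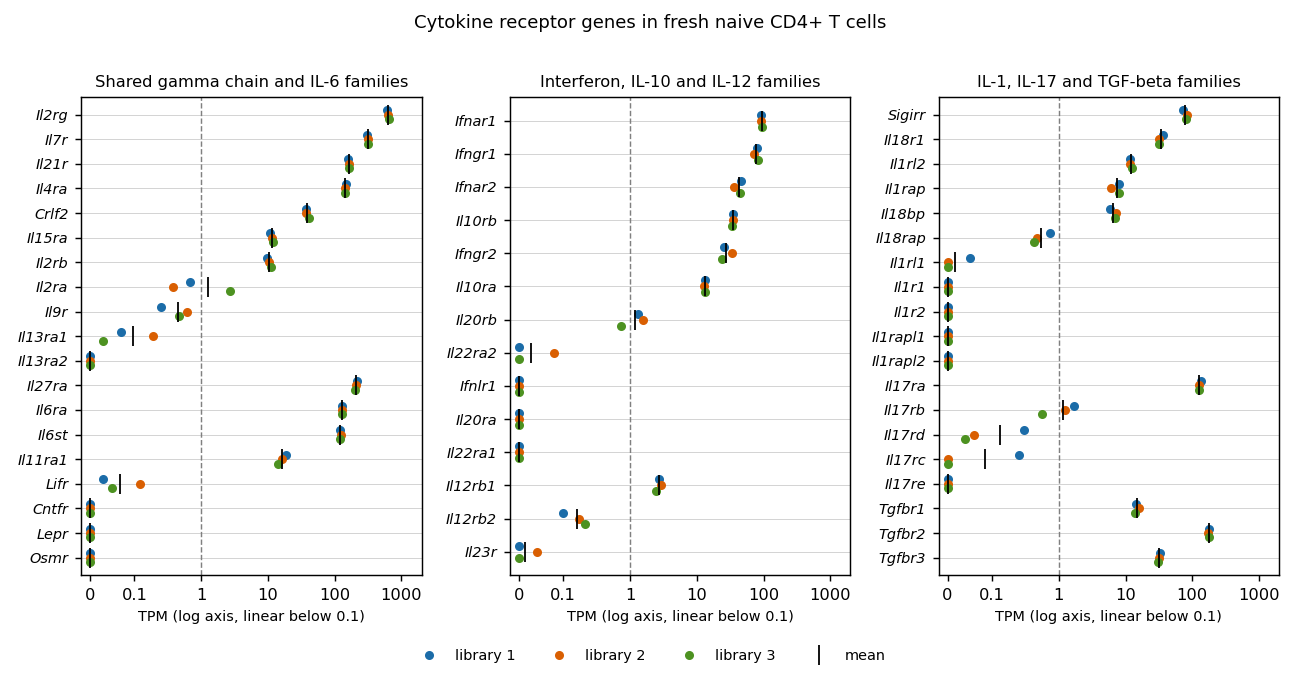
TPM of genes on the cytokine receptor lists by family in libraries 1 to 3 (points) with the mean (bar). The axis is logarithmic above 0.1 TPM and linear below, with a dashed line at 1 TPM. Il2rg, Il7r, Il21r, Il4ra, Il27ra, Il6ra, Il6st, Il17ra and Tgfbr2 lie above 100 TPM, and Il1r1 and Il1r2 lie at 0 in all 3 libraries.

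The downstream chain was expressed in 18 of 19 genes, with a median of 50.7 TPM. Jak1 had 384, 402 and 387 TPM, and Jak3, the kinase bound to the common gamma chain, had 131 TPM, or 0.336 ± 0.0216 of Jak1. Stat5b was 1.97 ± 0.215 times Stat5a. Socs3, a feedback inhibitor, had 152 TPM, and Socs2 was the only member not expressed, with 8 counts in all.

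Of 44 secreted cytokines 9 were expressed and 19 had no counts, with a median of 0.0633 TPM. Ltb, the membrane-bound partner of lymphotoxin, had 1023, 969 and 964 TPM, Il16 had 241, 244 and 243, and Tgfb1 121, 122 and 123. Tnf (25.2 TPM), Lta (25.2) and Osm (23.2) followed with overlapping ranges, then Il10 with 18.4, 16.1 and 21.4 TPM. Il1b, the gene of the cytokine of the series, and Csf1 were the lowest of the 9, with overlapping ranges. At a threshold of 2 TPM 7 of the 44 were expressed. The helper cytokine genes Il4, Il5, Il9, Il13, Il17a, Il6 and Csf2 had 0 counts in all libraries. A floor of 3 counts allows up to 1 TPM for the short Il4, 0.339 for Il13 and 0.352 for Il17a. Ifng had 6 counts over the 3 libraries and Il2 had 6. Of 32 chemokines 2 were expressed, Ccl5 and Ccl25, and 18 had no counts. Among TNF family ligands 9 of 18 (50%, against 45.4% of all protein-coding genes) were expressed. Cd40lg (86.8, 90.9 and 89.8 TPM), the ligand that helps B cells, came behind Ltb.

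Of the 386 genes on the transcription factor lists, which include Notch receptors and effectors, 187 (48.4%, against 45.4% of all protein-coding genes) were expressed. Of these 386 genes 31 were abundant, 111 had no counts, and the median was 0.997 TPM. Tcf7 was the highest, 3.06 ± 0.206 times its relative Lef1. Ets1, a regulator of T cell survival, had 595, 606 and 599.6 TPM, the genome organiser Satb1 440.4 and the Ikaros gene Ikzf1 425, 423 and 431. AP-1 members Junb (396) and Jund (341), Klf2 (346), and the interferon regulatory factors Irf1 (267) and Irf3 (266), whose ranges overlapped, came next, and Bcl11b, which guards T cell identity, had 190.4.

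**Figure D5:**
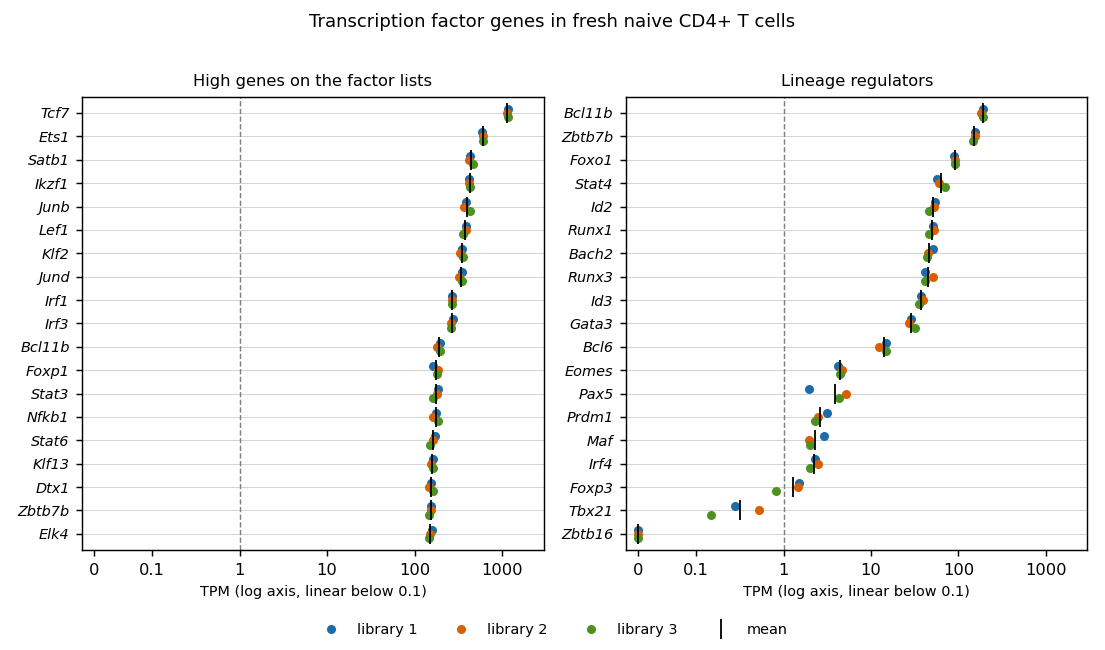
TPM of 19 highly expressed genes on the transcription factor lists and of 19 lineage regulators in libraries 1 to 3 (points) with the mean (bar), on an axis logarithmic above 0.1 TPM and linear below, with a dashed line at 1 TPM. Tcf7 at 1157 TPM leads the first panel, and the second runs from Bcl11b at 190.4 to Zbtb16 at 0.

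Regulators of helper fates were at very different levels. Zbtb7b (ThPOK), which fixes the CD4 fate, had 156, 156 and 147 TPM, and Runx3, which opposes it in CD8 cells, 41.9, 51.2 and 41.6, overlapping with Runx1 (50.1). Gata3, needed for CD4 cells and for Th2 cells, had 28.4, 27.2 and 31.7 TPM. Bcl6 of follicular helper cells had 14.8, 12.3 and 14.9 TPM. Tbx21 (T-bet, Th1) had 0.28, 0.53 and 0.15 TPM, and Zbtb16 (PLZF, of innate-like T cells) had no counts. Foxo1, which drives Il7r and Klf2 in naive cells, had 89.3, 91.1 and 92.5 TPM. Bach2, a repressor of effector genes, had 51.2, 45.4 and 43.4 TPM. Of the E protein antagonists, Id2 had 54.6, 52.8 and 46.4 TPM and Id3 37.7, 39.5 and 35.2, below the E protein gene Tcf3 at 71, 70.8 and 82. The range of the E protein gene Tcf12 overlapped that of Id2, and the E protein gene Tcf4 lay below Id3.

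By family, all 7 Stat genes, all 9 interferon regulatory factors and all 5 Ikaros genes were expressed, as were 9 of 10 NF-kB and NFAT genes, led by Nfkb1 (175). Over all protein-coding genes 45.4% were expressed and 36.5% had no counts. Nuclear receptors were near these shares, with 21 of 49 (42.9%) expressed and 18 (36.7%) without counts. Their highest member was the LXR beta gene Nr1h2 (134). Of 37 forkhead genes 12 (32.4%) were expressed and 16 (43.2%) had no counts. In the Kruppel-like family 9 of 17 genes (52.9%) were expressed, and Klf2 was followed by Klf13 (158 TPM) and Klf3 (130). In the Ets family 14 of 26 (53.8%) were, and Ets1 was followed by Elk4 (152) and Elf1 (143), whose ranges overlapped. The Myc network had 8 of 12 expressed, with Max, the shared partner, at 122, 111 and 152 TPM and Myc at 71, 80.7 and 72.6. Notch receptors and effectors were expressed in 7 of 12 cases, with Dtx1, a Notch target, at 156, 148 and 164 TPM, Notch1 at 70.2, 64.3 and 61.2 and the target Hes1 at 0.263. In the Smad family 6 of 8 were expressed, and the inhibitory Smad7 had 123, 117 and 109.9 TPM. Developmental families had few expressed members. Only Hoxb4 (1.87, 2.26 and 1.69 TPM) of 39 Hox genes was expressed and 27 had no counts, and of 17 T-box genes 3 were expressed and 10 had none. Of 9 Pax genes only Pax5 (3.84), a B cell factor, was expressed.

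Cell division genes differed widely in level, with D cyclins high and several mitotic genes near or below 1 TPM. Of 29 cell division genes 18 were expressed, with a median of 4.17 TPM. The D cyclins Ccnd3 (253, 252 and 234 TPM) and Ccnd2 (219), the kinase Cdk4 (136) and the replication clamp Pcna (126, 131 and 136) were abundant. The ranges of Ccnd3 and Ccnd2 and of Cdk4 and Pcna overlapped. Among genes of later phases, Top2a had 4.17 TPM, Cdc20 2.77 and Plk1 1.5. Mki67, the proliferation marker, had 0.81, 1.09 and 1.23 TPM, Cdk1 1.76, 1.01 and 0.21 and Ccnb1 0.88. Of 22 inhibitors and quiescence genes 18 were expressed and 8 abundant, with a median of 47.2 TPM. They were led by Btg1, a promoter of messenger decay, with 609.6, 625 and 558 TPM, Txnip, a brake on glucose uptake, with 493, 511 and 515, and Slfn2 with 401. Cdkn1b (p27) had 130.2 ± 1.02 TPM, and Cdkn1a (p21) 0.333. In the Bcl2 family the survival gene Mcl1 had 269.9 TPM and Bcl2 53.9, and the death effectors Bax and Bak1 had 122 and 26.5. The trigger of T cell death Bcl2l11 (BIM) had 29.1, 26.4 and 32.7 TPM, above the survival gene Bcl2l1 (11, 8.31 and 10.4). The glucose transporters Slc2a3 and Slc2a1 had 23.6 and 20 TPM, a ratio of 1.18 ± 0.101.

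Many genes with no counts belonged to families known from other tissues. Of 1135 olfactory receptor genes 1084 (95.5%) had none, as did 309 of 333 vomeronasal receptors (92.8%) and 48 of 53 keratins (90.6%). All 57 keratin-associated protein genes, all 42 beta-defensins, 22 alpha-defensins, 22 major urinary proteins and 34 secretoglobins had none. Cytochrome P450 genes lacked counts in 80 of 100 cases, potassium channel genes in 52 of 94 (55.3%) and claudins in 25 of 34 (73.5%). Over all protein-coding genes the share without counts was 36.5%, and among 371 solute carrier genes it was 31.5%. Of 394 Zfp zinc finger genes 38 (9.64%) had no counts and 295 (74.9%) were expressed. All 8 Gimap genes, GTPases of lymphocyte survival, were expressed. The expressed share was 45.4% over all protein-coding genes and 43.1% for solute carriers.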

How the data were processed

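Polyadenylated RNA of 3 libraries of fresh naive CD4+ T cells was, per the labels' protocols, extracted with RNAiso Plus, column-cleaned and prepared with the NEBNext Ultra II Directional kit. The submitters' processing notes name STAR, RSEM and mm10; the sources used here give no tool version, read trimming or strand setting, so overlapping antisense genes may share reads. The deposited tables, 1 per library, hold RSEM expected counts, which split shared reads between genes, and deposited TPM values made from them with effective lengths in bases.

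Of 55487 identifiers 55227 (99.5%) matched GENCODE M21 (GRCm38, the assembly of mm10). Nothing was tested, since no groups were compared. Levels are mean TPM ± SD; neighbours were called separate where all 3 values of 1 gene exceeded all 3 of the other. Gene lists (63, with 941 genes) came from general knowledge; the samples, lists and rules were chosen with earlier results of these data known. Named are the 25 highest messengers (ribosomal protein, mitochondrial and Gm or Rik model genes aside) and the 5 highest ribosomal, mitochondrial and noncoding genes, in each list up to 6 highest members, those near 1 TPM and those without counts, the markers, the 21 gene pairs, the 3 highest Trbv segments and the 10 genes whose spread most exceeds counting; other members were named after their values were seen, and some genes within the rule are not reported here. A floor is 3 counts in a library. Promoter sequences are those of RefSeq (GRCm38.p6), matched by symbol or Entrez number. Alternatives were other thresholds (0.5 and 2 TPM, 10 counts), scalings (TMM, nuclear protein-coding genes, no division by length), removal of genes under 200 bases, thinning to the smallest library, and leaving out each library. Python 3.11.15, pandas 2.3.3, numpy 2.4.6, matplotlib 3.10.9, R 4.3.3 and edgeR 4.0.16 (TMM factors only) were used. Scripts were tested on simulated data.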

Additional observations from a re-analysis of the deposited data

How the results depend on the processing

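The number of expressed protein-coding genes, 9982, ranged from 9436 at 2 TPM to 10513 at 10 counts and from 10078 to 10106 without 1 library, and the number without counts, 8031, from 8366 to 8473 without 1 library. Shares of TPM depended on length. That of ribosomal protein genes, 28.3%, was 31.1% over nuclear protein-coding genes, 26.8% without genes under 200 bases, 8.56% of counts and 28.2 to 28.4% without 1 library. That of mitochondrial messengers, 4.43%, was 3.45% without short genes, 1.92% of counts and 4.38 to 4.5% without 1 library. The 100 highest genes, 38.7%, held 39.7% over nuclear protein-coding genes, 37.9% without short genes, 19.2% of counts and 38.6 to 38.7% without 1 library. In counts not divided by length 18 of 21 pair ratios turned or moved by at least their SD on the log2 scale, and 3 did not. Of the 18, 5 turned. On the log2 scale Il7r over Il2rg went from -1.01 to 0.14, Il6ra over Il6st from 0.08 to -0.35 and Il27ra over Il6st from 0.78 to -0.85. Cd3e over Cd3g went from -0.23 to 0.26 and Itgal over Itgb2 from -0.47 to 0.39. No paired analysis was possible because no groups were compared. Of 63 lists, 2 changed their expressed count by over 1.5 times at 0.5 TPM (IL-17 receptors and Hox genes, each from 1 to 2), 7 at 2 TPM (NK from 5 to 3, monocyte from 6 to 2, erythroid and platelet from 4 to 1, Fc receptors from 5 to 3, growth factor receptors from 4 to 2, Hox and Pax from 1 to 0), 4 at 10 counts (erythroid and platelet to 2, IL-17 receptors and Hox to 2, TGF-beta receptors from 6 to 10) and 1 without replicate 3 (IL-17 receptors, to 2), and TMM factors changed none. Depth limits genes near 1 TPM, and 3 libraries limit every SD.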

Other observations

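Several genes better known from other cells were above 1 TPM in all 3 libraries; they were chosen after their values were seen. Itgb3, the platelet and macrophage integrin chain, had 67.8, 68.6 and 67.6 TPM, while the platelet integrin chain Itga2b had 2.38 and the platelet chemokine Pf4 a single count. Gata1, the erythroid factor, had 7.85, 10 and 8.2 TPM, beside 1.75, 12.6 and 9.22 for the haemoglobin gene Hba-a2. Tbx6, known from mesoderm, had 13.9, 12 and 11 TPM. Tnfrsf13b (TACI), a B cell receptor, had 21.2, 23.2 and 27.4 TPM. Among sensory receptor genes above 1 TPM in all libraries were Vmn2r97 with 11.7, 13.1 and 12.5 TPM and Olfr99 with 222 counts in all and 3.74, 8.38 and 3.78. The Y-linked gene Ddx3y had 71, 73.8 and 70.2 TPM, and Xist, the RNA of the inactive X, had 7, 6 and 0 counts.

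For some genes with a large spread in TPM the deposited effective length differed more between libraries than the counts did. Mrm1, a mitochondrial rRNA methyltransferase gene, had 81.8, 24.2 and 20.1 TPM but 32, 30 and 28.1 CPM (the share of all counts, with no division by length), and its deposited effective length was 579, 1827 and 2065 bases. Il2ra had lengths of 4186, 4177 and 1198 bases, 0.68, 0.38 and 2.73 TPM and 1.91, 1.07 and 2.22 CPM. Pagr1a differed in counts as well, with 0.82, 21 and 0.511 CPM. RSEM sets a gene's effective length from its estimated isoform shares. Among 9982 expressed protein-coding genes the length differed by more than 1.5-fold between libraries in 587 (5.88%). Some others with a spread far above counting were noncoding models of short effective length, such as Rnu3a with 0, 0 and 5 counts, or 38.2 TPM in replicate 3, on a mean of 15.5 bases.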
